A study of Mus musculus with 12 samples.

Results

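Genes of glycolysis, glucose uptake and glycogen metabolism were followed in heart muscle cells that had been placed under pressure overload or not, with or without both myocardin-related transcription factors (MRTFs). The 36 genes were taken by name, as members of these pathways, out of 49568 rows of the count table. They comprise 2 glucose transporters, the enzymes of glycolysis with their tissue-specific forms, the 4 bifunctional PFKFB enzymes, the 2 main lactate dehydrogenase subunits, the 4 pyruvate dehydrogenase kinases and 8 genes of glycogen storage and breakdown. Of the 36 genes, 35 passed the filter on low counts. Aldoc, the brain form of aldolase, did not, with 1 to 10 counts in any library.

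Cardiomyocytes came from 4 groups of male mice with 3 libraries each: dKO TAC, dKO sham, control TAC and control sham. TAC is a constriction of the aorta that raises the pressure against which the left ventricle works. The dKO mice were MHC-MerCreMre/+ with Mrtf-a-/- and Mrtf-bflox/flox, so that MRTF-A was missing from every cell of the animal and MRTF-B was removed from cells with the myosin promoter active. Control mice were alphaMHC-MerCreMre/+, with no Mrtf allele named in their genotype, so the tamoxifen-dependent Cre was present in all 4 groups. All mice were given tamoxifen on 3 days at 30 ug/g when 8 weeks old, and hearts were taken 7 days after surgery at 11 weeks. The labels place the surgery at 10 weeks and the series' design text at 8 weeks. Cells were separated from non-myocytes by settling for 10 min, and the sources used here do not say whether a library holds 1 animal or a pool, so p-values measure the spread between these libraries.

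Glycolysis turns glucose into pyruvate, which enters the mitochondria through the pyruvate dehydrogenase complex or is reduced to lactate. Adult cardiomyocytes draw most of their energy from fatty acids, take up glucose through the insulin-responsive transporter GLUT4 and use muscle-type forms of many glycolytic enzymes. The fetal heart relies more on glucose, uses the transporter GLUT1 and has more of the widely expressed enzyme forms, and load-stressed hearts are known to return in part to this pattern. MRTFs are actin-regulated coactivators of serum response factor, which binds CArG boxes.

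Library totals lay between 20082000 and 29675212 counts, of which the 36 genes took 1.28% to 2.20%. Levels are given below as CPM, which are counts divided by the size of the library after TMM correction. Mkl1, which encodes MRTF-A, averaged 2.55 ± 0.36 CPM in dKO TAC and 13.7 ± 3.8 CPM in control TAC (SD, n = 3 each), and 2.74 ± 0.54 CPM in dKO sham and 9.29 ± 1.93 CPM in control sham. It was lower in dKO after TAC (adjusted p = 0.00182) and after sham (adjusted p = 0.0409), and the sham call was kept without control TAC 1 and lost without any 1 of the other 11 libraries (adjusted p up to 0.16). Mkl2, which encodes MRTF-B, averaged 23.6 ± 5.0 CPM in dKO TAC and 34.3 ± 3.7 CPM in control TAC, and 21.8 ± 5.9 CPM in dKO sham and 40.3 ± 6.7 CPM in control sham (log2 change -0.54 ± 0.23 after TAC and -0.88 ± 0.23 after sham, SE, not called). The floxed exons of Mkl2 were not analysed here, so its whole-gene count checks the label in part only. The load markers Nppa and Myh7 rose after TAC in both genotypes, Nppa by 3.22 ± 0.41 in dKO and 3.95 ± 0.42 in control on the log2 scale (SE), and the Myh7 call in control was lost without control sham 1 (adjusted p = 0.124), control sham 3 (0.114) or control TAC 2 (0.0524). Both dKO sham replicate 1 and dKO TAC replicate 2 stood apart from their groups: their deviation from the other replicates fell with transcript length (Spearman rho across 9900 genes of -0.70 and -0.61, as a description), and mitochondrially encoded genes took 16.5% and 15.3% of their counts against 23.2% to 32.6% elsewhere.

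The 8 cardiomyocyte markers, none at 0, summed to 43770 to 50410 CPM in dKO TAC and 54790 to 115800 CPM in dKO sham, without overlap, and to 45110 to 73920 CPM in control TAC and 55790 to 72820 CPM in control sham. In the mean of both genotypes 2 of the 8 were called lower after TAC, Tnni3 with a log2 change of -1.09 ± 0.33 (adjusted p = 0.0432) and Pln with -0.70 ± 0.17 (adjusted p = 0.0184), and the median log2 change of the 8 was -0.49. The summed level of 9 fibroblast markers was 2540 to 2925 CPM in dKO TAC and 1064 to 1476 CPM in dKO sham, and 1376 to 8156 CPM in control TAC and 951 to 1722 CPM in control sham. None of the 9 fibroblast markers was at 0 in any group. After TAC in dKO 3 of the 9 were called higher (background 4.20%) and 1 lower (background 3.19%). In the mean of both genotypes 4 were called higher (background 9.53%) and 1 lower (background 7.08%). The 5 markers of proliferating cells summed to 75.9 to 108 CPM in dKO TAC and 6.57 to 20.9 CPM in dKO sham, and to 69.5 to 168 CPM in control TAC and 9.78 to 28.4 CPM in control sham. The 10 macrophage markers summed to 266 to 496 CPM in dKO TAC and 247 to 306 CPM in dKO sham, and to 220 to 738 CPM in control TAC and 156 to 341 CPM in control sham. For 8 endothelial markers the sum was 1040 to 1782 CPM in dKO TAC and 1736 to 2233 CPM in dKO sham. In control it was 1497 to 1981 CPM after TAC and 1341 to 1971 CPM after sham. Of 8 pericyte and smooth muscle markers, 1 was called higher and 2 lower in the mean of both genotypes. The part of these marker levels in the results below, the falls of muscle and heart forms included, was not tested. In such mixed RNA, fewer cells of a type and less RNA per cell cannot be told apart.

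In unloaded control hearts muscle or heart forms led most families. On a per-length scale (TPM, computed from the same counts with transcript length), control sham libraries held 2620 ± 214 TPM of Aldoa, which encodes the muscle aldolase, the highest level of the 36 genes. The heart-type lactate dehydrogenase subunit Ldhb followed at 1575 ± 219 TPM and the muscle enolase Eno3 at 1420 ± 215 TPM, and these neighbours in the order differed by less than their SD. Gapdh stood at 1166 ± 79 TPM, the muscle phosphoglycerate mutase Pgam2 at 937 ± 77 TPM, and the muscle glycogen phosphorylase Pygm at 727 ± 79 TPM. Pfkm, muscle phosphofructokinase, had 642 ± 89 TPM, against 59.7 ± 1.8 TPM of the liver form Pfkl and 21.7 ± 4.9 TPM of the platelet form Pfkp. Slc2a4, which encodes GLUT4, had 269.9 ± 38.5 TPM and Slc2a1, which encodes GLUT1, 8.61 ± 0.33 TPM. The lowest tested members were Pfkfb4 at 1.70 ± 0.51 TPM and Pdk3 at 1.39 ± 0.31 TPM.

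After TAC, the GLUT1 gene and the minor forms Pfkp, Pgam1 and Pdk3 were among the members that rose, and the GLUT4 gene, Pfkm, Ldhb and Pdk2, the main forms of their families, among those that fell. In the mean of both genotypes 5 of the 35 tested members rose, against 9.53% of all 14712 tested genes, and 7 fell, against 7.08% (edgeR quasi-likelihood F test, Benjamini-Hochberg adjusted p under 0.05). The 5 that rose were Pfkp, Pdk3, Pgam1, Slc2a1 and Pgk1, and the 7 that fell were Phkg1, Pfkfb1, Ldhb, Slc2a4, Pdk2, Pfkm and Pygm. The share of members that fell was above the background share, and the share that rose was nearer to it. The median change of the 35 members was -0.04 on the log2 scale and that of all tested genes -0.01. Within dKO, 1 member rose (background 4.20%) and 4 fell (background 3.19%): Pfkp, and Pfkfb1, Phkg1, Slc2a4 and Pdk2. Within control, 3 rose (background 1.90%), namely Pfkp, Pgam1 and Pdk3, and 2 fell (background 0.347%), namely Pfkfb1 and Phkg1. The control count rests on single libraries and on the fit of all groups. No member was called when the control libraries were fitted alone, and none was called without control sham replicate 1, control sham replicate 3 or control TAC replicate 2, and 2 or 3 were called without each of control sham 2, control TAC 3, dKO sham 2 and 3 and dKO TAC 1, 2 and 3. The dKO count was 3 when dKO TAC replicate 1 or 3 was left out, 8 when dKO sham 1 was, and 9 when control TAC 1 or dKO sham 3 was, and it was 12 with DESeq2 or with the trend with transcript length removed. With the dKO libraries fitted alone it was 3, of which 1 rose and 2 fell. The mean of both genotypes gave 7 calls without any 1 of control sham 1, control sham 3, control TAC 2, control TAC 3 or dKO TAC 1.

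**Figure D1:**
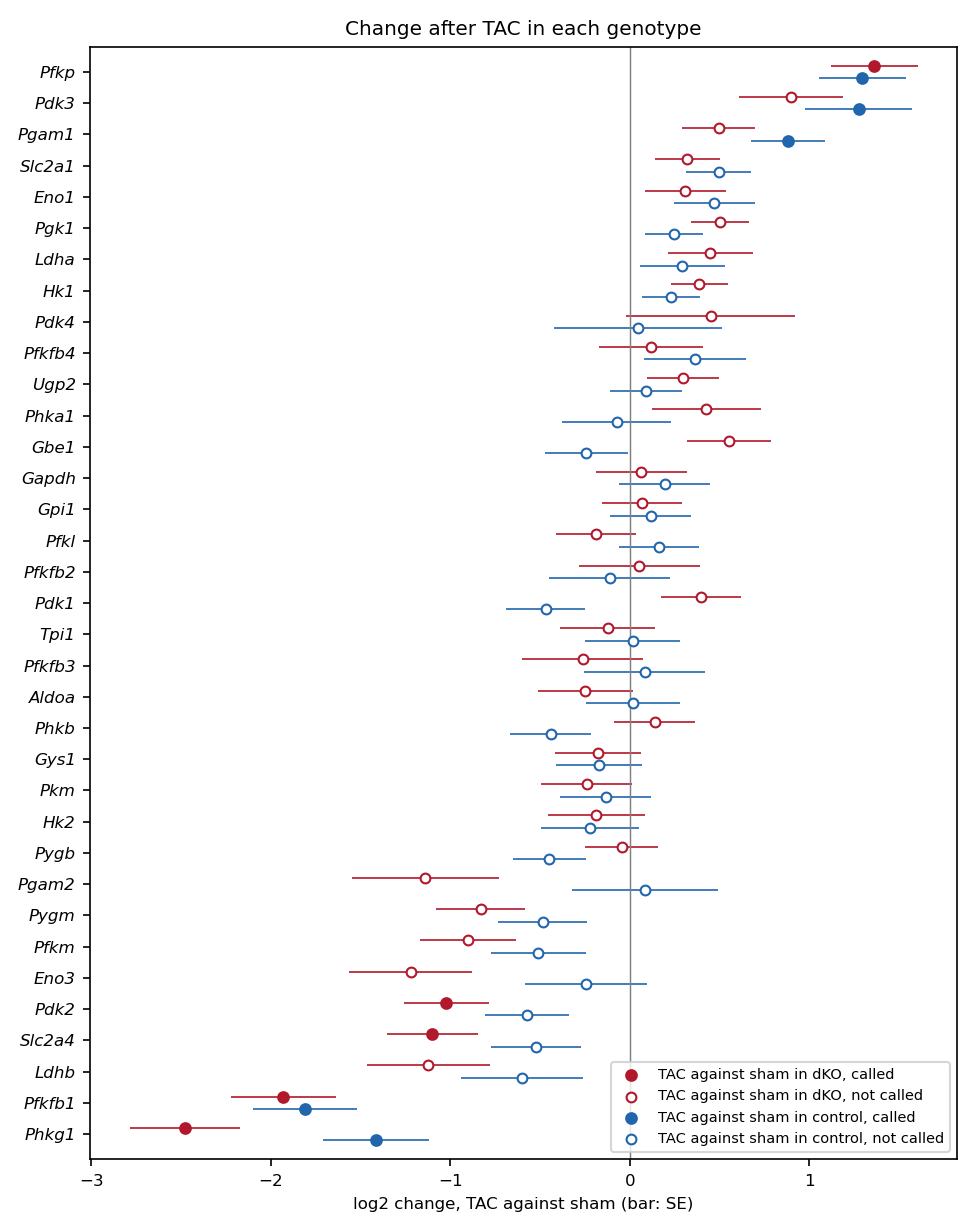
Change after TAC for the 35 tested members, as log2 of TAC over sham with its standard error, in dKO (red, upper point of each pair) and in control (blue, lower point), ordered by the mean of both. Filled points passed the adjusted p threshold: Pfkp at the top and Pfkfb1 and Phkg1 at the bottom did so in both genotypes.

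The member that rose in both genotypes was Pfkp (ENSMUSG00000021196.14, chr13:6579768-6648777, minus strand, GRCm38), which encodes the platelet-type subunit of phosphofructokinase, the enzyme of the committed step of glycolysis. Pfkp had 216, 185 and 259 CPM in dKO TAC, against 86.0, 83.5 and 87.6 CPM in dKO sham. In control it had 123, 182 and 92.5 CPM after TAC, against 52.5, 64.3 and 45.2 CPM after sham. Every TAC library was above every sham library. The change was 1.36 ± 0.24 in dKO (adjusted p = 0.00865) and 1.29 ± 0.24 in control (adjusted p = 0.0204) on the log2 scale (SE), and 1.33 ± 0.17 in their mean (adjusted p = 0.000668), a fold of 2.51. The dKO and mean calls held in all settings tried. The control call was lost without control sham 1 (adjusted p = 0.124), control sham 3 (0.137) or control TAC 2 (0.0801).

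Phkg1 and Pfkfb1 showed the opposite pattern with as clean a separation. Phkg1 (ENSMUSG00000025537.12, chr5:129863421-129898549, minus strand) encodes the catalytic subunit of muscle phosphorylase kinase, which switches on glycogen breakdown. It had 4.13, 7.58 and 5.26 CPM in dKO TAC, against 44.5, 28.0 and 22.4 CPM in dKO sham, a log2 change of -2.48 ± 0.31 (adjusted p = 0.0019). In control it had 10.5, 7.05 and 8.26 CPM after TAC, against 27.7, 18.2 and 23.0 CPM after sham, a log2 change of -1.42 ± 0.30 (adjusted p = 0.0325). All 6 TAC libraries were below all 6 sham libraries. The control call was lost without control sham 1 (adjusted p = 0.144), control sham 3 (0.137), control TAC 2 (0.15), control TAC 3 (0.13) or dKO TAC 3 (0.0542). Its exons overlap Sumf2 on the other strand, and 7 other genes hold short stretches that match its transcript, the longest of 193 nt. The 6 of them with a row in the table hold 157510 counts over the 12 libraries, against 4970 for Phkg1, so reads in those stretches could be split and its level is uncertain. Exons on the other strand also overlap Pfkp, Pfkfb1, Pfkm and Slc2a1, and no source used here says how the counting treated strand.

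Pfkfb1 (ENSMUSG00000025271.13, chrX:150588229-150643878, plus strand) encodes the liver and muscle form of the enzyme that makes and removes fructose 2,6-bisphosphate, an activator of phosphofructokinase. It had 4.30, 6.42 and 5.63 CPM in dKO TAC, against 27.9, 18.2 and 16.3 CPM in dKO sham. In control it had 5.65, 2.88 and 5.09 CPM after TAC, against 17.9, 12.9 and 17.0 CPM after sham. The groups did not overlap in either genotype. The log2 change was -1.93 ± 0.29 in dKO (adjusted p = 0.00472) and -1.81 ± 0.29 in control (adjusted p = 0.0146). The control call was lost without control sham 1 (adjusted p = 0.088), control sham 3 (0.0989) or control TAC 2 (0.064). The other PFKFB genes did not pass the test in any comparison: Pfkfb2, the heart form, averaged 46.9 ± 19.5 CPM in dKO TAC and 45.2 ± 14.2 CPM in dKO sham, and 50.4 ± 16.4 CPM in control TAC and 54.5 ± 11.4 CPM in control sham. Pfkfb3, the inducible form, and Pfkfb4 changed by -0.09 ± 0.24 and 0.24 ± 0.20 in the mean of both genotypes, with 7.74 to 20.99 CPM and 2.48 to 5.61 CPM in the 12 libraries.

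**Figure D2:**
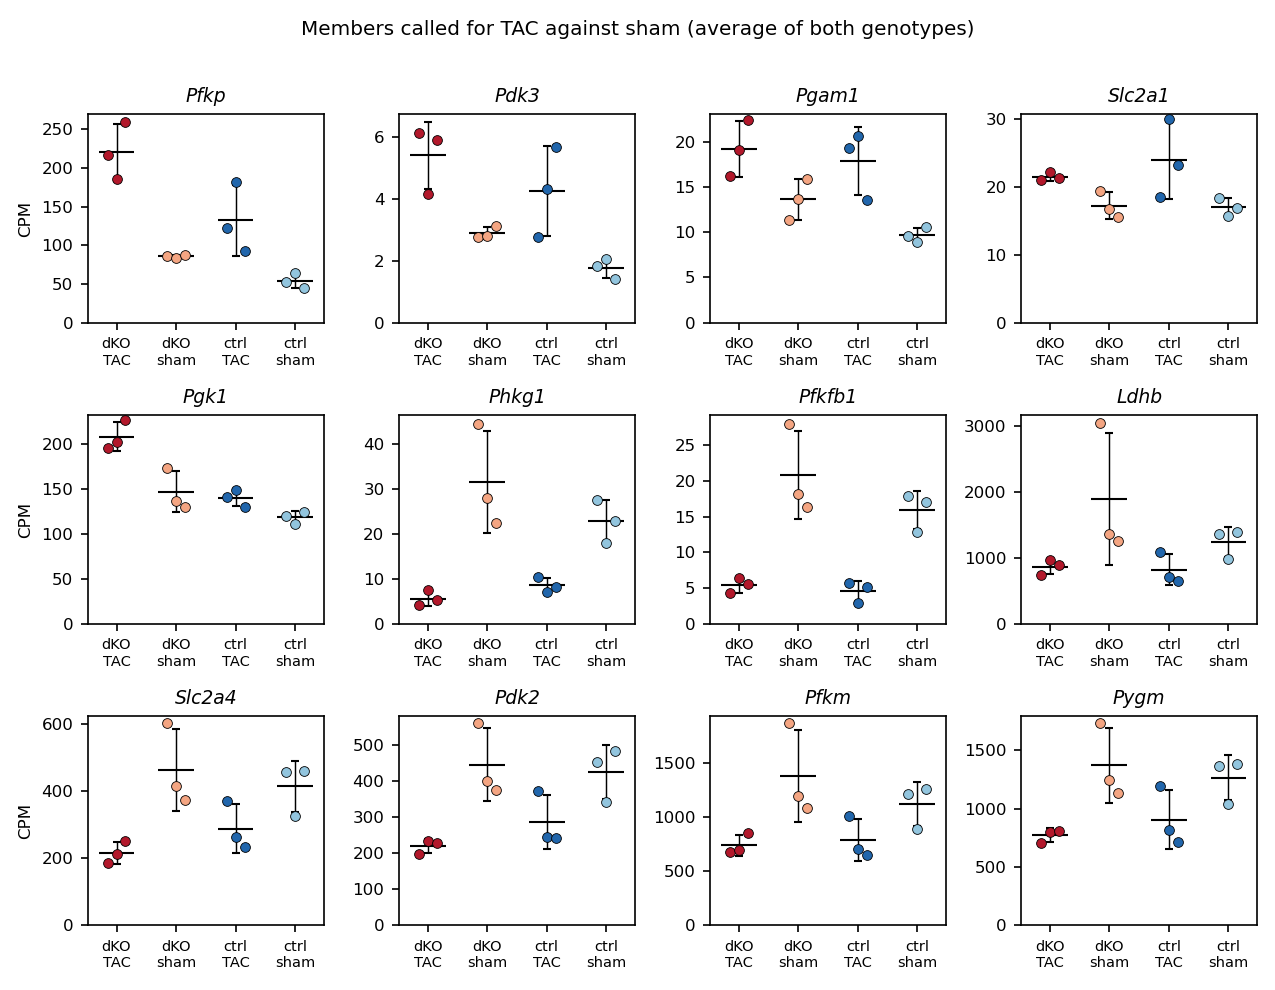
CPM of the 12 members called for TAC against sham in the mean of both genotypes, 1 panel per gene with the axis from 0, points for libraries and bars for mean and SD (n = 3), in dKO TAC, dKO sham, control TAC and control sham. The 5 genes that rose come first. In the panels of genes that fell, dKO sham replicate 1 is the top point of its group.

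Of the 2 glucose transporters, the insulin-responsive GLUT4 gene fell and the GLUT1 gene rose in the mean of both genotypes. Slc2a4 had 185, 213 and 250.3 CPM in dKO TAC, against 602, 416 and 372 CPM in dKO sham, with no overlap and a log2 change of -1.10 ± 0.25 (adjusted p = 0.0241). In control it had 369, 262 and 233 CPM after TAC and 457, 325 and 459 CPM after sham, which overlap, and the change of -0.52 ± 0.25 did not pass the test (adjusted p = 0.317). The mean of both, -0.81 ± 0.18 (adjusted p = 0.0102), was called in all settings tried. The dKO call was lost without both libraries that stood apart (adjusted p = 0.0637), and without dKO TAC 1 (0.127), 2 (0.0561) or 3 (0.0616) alone. Of the 4 members that fell in dKO, 2 were still called with the dKO libraries fitted alone. Slc2a1 had 21.1, 22.2 and 21.3 CPM in dKO TAC, against 19.4, 16.8 and 15.6 CPM in dKO sham, and 18.6, 30.0 and 23.2 CPM in control TAC, against 18.4, 15.7 and 16.9 CPM in control sham. The TAC libraries lay above their sham libraries in both genotypes, by little in the closest pair. Its mean change of 0.41 ± 0.13 (adjusted p = 0.0486) was kept without control TAC 1 or dKO sham 1 and lost without any 1 of the other 10 libraries (adjusted p up to 0.132), and with RLE size factors (0.0537). Of the 5 members that rose in the mean, 3 were still called without a filter or with a replicate block, and 4 with limma-voom.

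Among the enzymes of the first and committed steps, Pfkm fell and the hexokinases did not pass the test. Hk1, the widely expressed hexokinase, had 242, 235 and 284 CPM in dKO TAC, against 209, 191 and 182 CPM in dKO sham, with no overlap, and 221, 229.9 and 185 CPM in control TAC, against 179, 194 and 170.1 CPM in control sham. Its mean change of 0.31 ± 0.11 did not pass the test (adjusted p = 0.0829), nor did that of the muscle hexokinase Hk2 (-0.20 ± 0.19). Pfkm had 671, 695 and 849.7 CPM in dKO TAC, against 1866, 1197 and 1079 CPM in dKO sham, and 1008, 707 and 647 CPM in control TAC, against 1213, 889 and 1262 CPM in control sham. It fell in the mean of both genotypes (-0.71 ± 0.19, adjusted p = 0.0248). That call was lost without control sham 1 (0.0667), control sham 3 (0.0706), control TAC 2 (0.0737), control TAC 3 (0.0613), dKO TAC 1 (0.074) or dKO TAC 2 (0.052), each an adjusted p. Pfkl was at 156 to 194 CPM in dKO TAC and 166 to 276 CPM in dKO sham, and at 119 to 167 CPM in control TAC and 129 to 142 CPM in control sham (mean change -0.01 ± 0.16). Gpi1, glucose 6-phosphate isomerase, changed by 0.09 ± 0.16 and was not called.

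Aldoa, Tpi1, Gapdh and Pkm did not pass the test for TAC. Aldoa averaged 2678 ± 209 CPM in dKO TAC and 3181 ± 1228 CPM in dKO sham, and 2426 ± 196 CPM in control TAC and 2398 ± 303 CPM in control sham. Tpi1, triose phosphate isomerase, Gapdh, glyceraldehyde 3-phosphate dehydrogenase, and Pkm, pyruvate kinase, had mean TAC changes of -0.05 ± 0.19, 0.13 ± 0.18 and -0.19 ± 0.18 on the log2 scale, and none was called. With the trend with transcript length removed, Gapdh was called higher (adjusted p = 0.0312). Near-identical copies of Gapdh sit in 94 other annotated genes, whose rows hold 2.37% as many counts as Gapdh itself. How reads that align to several genes were counted is not given, so such a share does not bound the uncertainty of a level. Rows of such copies hold at most 0.673% as many counts as the gene itself for Pgk1, Pgam1, Eno1, Ldha and Ldhb.

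Pgk1 and Pgam1 rose in the mean of both genotypes. Pgk1, phosphoglycerate kinase, had 195, 203 and 226 CPM in dKO TAC, against 174, 137 and 130.4 CPM in dKO sham, and 141, 149 and 130.1 CPM in control TAC, against 120.0, 110.5 and 125 CPM in control sham. The groups did not overlap in either genotype. Its mean change of 0.37 ± 0.11 (adjusted p = 0.0431) was kept without dKO sham 1 and lost without any 1 of the other 11 libraries (adjusted p up to 0.114), and with RLE size factors (0.0525). Without a filter or with a replicate block, 3 of the 5 members that rose in the mean were still called, and 4 with limma-voom. Pgam1, the widely expressed phosphoglycerate mutase, had 16.2, 19.1 and 22.3 CPM in dKO TAC, against 11.3, 13.7 and 15.9 CPM in dKO sham, and 19.3, 20.6 and 13.6 CPM in control TAC, against 9.55, 8.90 and 10.6 CPM in control sham. All TAC libraries were above the sham libraries of their genotype. The change was 0.88 ± 0.21 in control (adjusted p = 0.0478), 0.49 ± 0.20 in dKO (adjusted p = 0.143) and 0.69 ± 0.14 in their mean (adjusted p = 0.00842). The control call was kept without dKO sham 1 or control TAC 3 and lost without any other library (adjusted p up to 0.201). Of the 3 members that rose in control, 1 was still called with limma-voom or a replicate block, and 2 with the length trend removed.

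The muscle form Pgam2 and the enolases were not called in these comparisons. Pgam2 had 314, 515 and 348 CPM in dKO TAC, against 1616, 496 and 482 CPM in dKO sham, where replicate 1, the library that stood apart, gave the high value. In control it had 599.8, 465 and 451 CPM after TAC and 503, 408 and 519 CPM after sham. Eno3 had 684, 915 and 820.2 CPM in dKO TAC, against 3122, 1305 and 1207 CPM in dKO sham (log2 change -1.22 ± 0.34, adjusted p = 0.0509), and 1350, 1023 and 1040 CPM in control TAC, against 1464, 1049 and 1529 CPM in control sham. Eno1, the widely expressed enolase, had 119.8, 144 and 132 CPM in dKO TAC, against 151, 82.2 and 87.2 CPM in dKO sham. In control Eno1 had 82.0, 109.6 and 85.8 CPM after TAC and 68.6, 63.5 and 68.4 CPM after sham, with no overlap. Without dKO sham replicate 1 the mean Eno1 change was called (adjusted p = 0.00493), against an adjusted p of 0.116 with all libraries.

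Lactate dehydrogenase is a tetramer of H subunits from Ldhb, which predominate in adult heart, and M subunits from Ldha. Ldhb had 740, 971 and 889.5 CPM in dKO TAC, against 3039, 1367 and 1259 CPM in dKO sham, and 1097, 715 and 655 CPM in control TAC, against 1357, 986 and 1396 CPM in control sham. The groups did not overlap in dKO and overlapped in control. Ldhb fell in the mean of both genotypes (-0.86 ± 0.24, adjusted p = 0.0303). That call was lost without control sham 1 (0.0722), control sham 3 (0.0774), control TAC 2 (0.0859), control TAC 3 (0.0771), dKO TAC 1 (0.0866) or dKO TAC 3 (0.0633), each an adjusted p. Ldha had 975, 1152 and 1131 CPM in dKO TAC, against 1099, 649.7 and 639 CPM in dKO sham, and 645, 789 and 647 CPM in control TAC, against 629.5, 476 and 594 CPM in control sham. Its mean change of 0.37 ± 0.17 did not pass the test (adjusted p = 0.152), and was called without dKO sham 1 (0.0146).

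Pyruvate dehydrogenase kinases switch off the pyruvate dehydrogenase complex and so limit the oxidation of glucose carbon. Pdk2 had 197, 233 and 228 CPM in dKO TAC, against 562, 402 and 375 CPM in dKO sham, and 372, 245 and 242 CPM in control TAC, against 454, 341 and 484 CPM in control sham. It fell in dKO (-1.02 ± 0.24, adjusted p = 0.0246) and in the mean of both genotypes (-0.80 ± 0.17, adjusted p = 0.00802), and the call in the mean held in all settings tried. The dKO call was lost without dKO TAC 1 (adjusted p = 0.126) or dKO TAC 3 (0.0839). With the dKO libraries fitted alone, 2 of the 4 members that fell in dKO were still called. Pdk3 had 6.16, 4.18 and 5.91 CPM in dKO TAC, against 2.77, 2.81 and 3.13 CPM in dKO sham, and 2.77, 4.34 and 5.68 CPM in control TAC, against 1.83, 2.06 and 1.41 CPM in control sham. The groups did not overlap in either genotype. Its change was 1.27 ± 0.30 in control (adjusted p = 0.0478), 0.90 ± 0.29 in dKO (adjusted p = 0.075) and 1.09 ± 0.21 in the mean (adjusted p = 0.00519), at a level far below that of the other kinases. The control call was kept without control TAC 1 or dKO sham 1 and lost without any other library (adjusted p up to 0.238). With limma-voom or a replicate block, 1 of the 3 members that rose in control was still called, and 2 with the length trend removed. Pdk1 had a mean change of -0.04 ± 0.16. Pdk4, which fatty acids and fasting induce, ranged from 92.7 to 502 CPM over the 12 libraries and changed by 0.25 ± 0.33.

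Of the 8 glycogen genes 2 fell in the mean of both genotypes, where 7.08% of all tested genes fell. Besides Phkg1, Pygm, which releases glucose 1-phosphate from glycogen, had 705, 798 and 811 CPM in dKO TAC, against 1737, 1243 and 1136 CPM in dKO sham, and 1191, 815 and 709 CPM in control TAC, against 1369, 1042 and 1386 CPM in control sham. It fell in the mean of both genotypes (-0.66 ± 0.18, adjusted p = 0.0251). That call was lost without control sham 1 (0.0695), control sham 3 (0.0708), control TAC 2 (0.0757), control TAC 3 (0.0593), dKO TAC 1 (0.0759) or dKO TAC 3 (0.0518), each an adjusted p. The brain phosphorylase Pygb, which the heart also holds, was at 704 to 815 CPM in dKO TAC and 698 to 842 CPM in dKO sham, and at 662 to 763 CPM in control TAC and 723 to 1117 CPM in control sham. Its mean change was -0.25 ± 0.14 and not called. The kinase subunits Phka1 and Phkb changed by 0.18 ± 0.21 and -0.15 ± 0.16, glycogen synthase Gys1 by -0.18 ± 0.17, the branching enzyme Gbe1 by 0.15 ± 0.16 and Ugp2, which makes the UDP-glucose used for glycogen, by 0.19 ± 0.14, and none was called. Of the phosphorylase kinase genes measured, the catalytic subunit changed and the regulatory subunits did not pass the test, and that difference was not itself tested.

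Changes of form within a family were measured as the log2 ratio of the counts of 2 genes in the same library, so that library size cancels. A trend with transcript length does not cancel where the 2 genes differ in length. The 15 ratios were tested for TAC and for dKO, 30 exact two-sided permutation tests over the 12 libraries with labels exchanged within the other factor (400 arrangements, smallest possible p = 0.005) and Benjamini-Hochberg adjustment over the 30. After TAC, 9 of 15 ratios shifted, and 8 of them at the smallest possible p (adjusted p = 0.0188 each, exact permutation test), with TAC and sham libraries apart in both genotypes. The 8 are Slc2a1 to Slc2a4, Pfkl to Pfkm, Pfkp to Pfkm, Pfkfb1 to Pfkfb2, Pgam1 to Pgam2, Eno1 to Eno3, Ldha to Ldhb and Pdk3 to Pdk2. Ratios of other gene pairs were not tested, so the 9 of 15 have no background share. Ratios that share Pfkm, Pfkfb2 or Pdk2 are not independent. The ninth ratio, Pdk1 to Pdk2, shifted by 0.76 in the mean, 1.39 in dKO and 0.12 in control (exact permutation p = 0.015, adjusted p = 0.045), with overlap in control. Its adjusted p was 0.05 or above without any of the libraries except control sham 2, control TAC 1, dKO TAC 2 and dKO TAC 3. In 8 of the 9 shifts the ratio moved toward the form that was less abundant in control sham. The exception is Pfkfb1 to Pfkfb2, where the less abundant form Pfkfb1 lost share. The Pgam1 to Pgam2 call was lost without dKO TAC 1 (adjusted p = 0.05), Hk1 to Hk2 was called without control sham 2 (0.03) and Pygb to Pygm without control TAC 1 (0.015), by the exact permutation test.

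**Figure D3:**
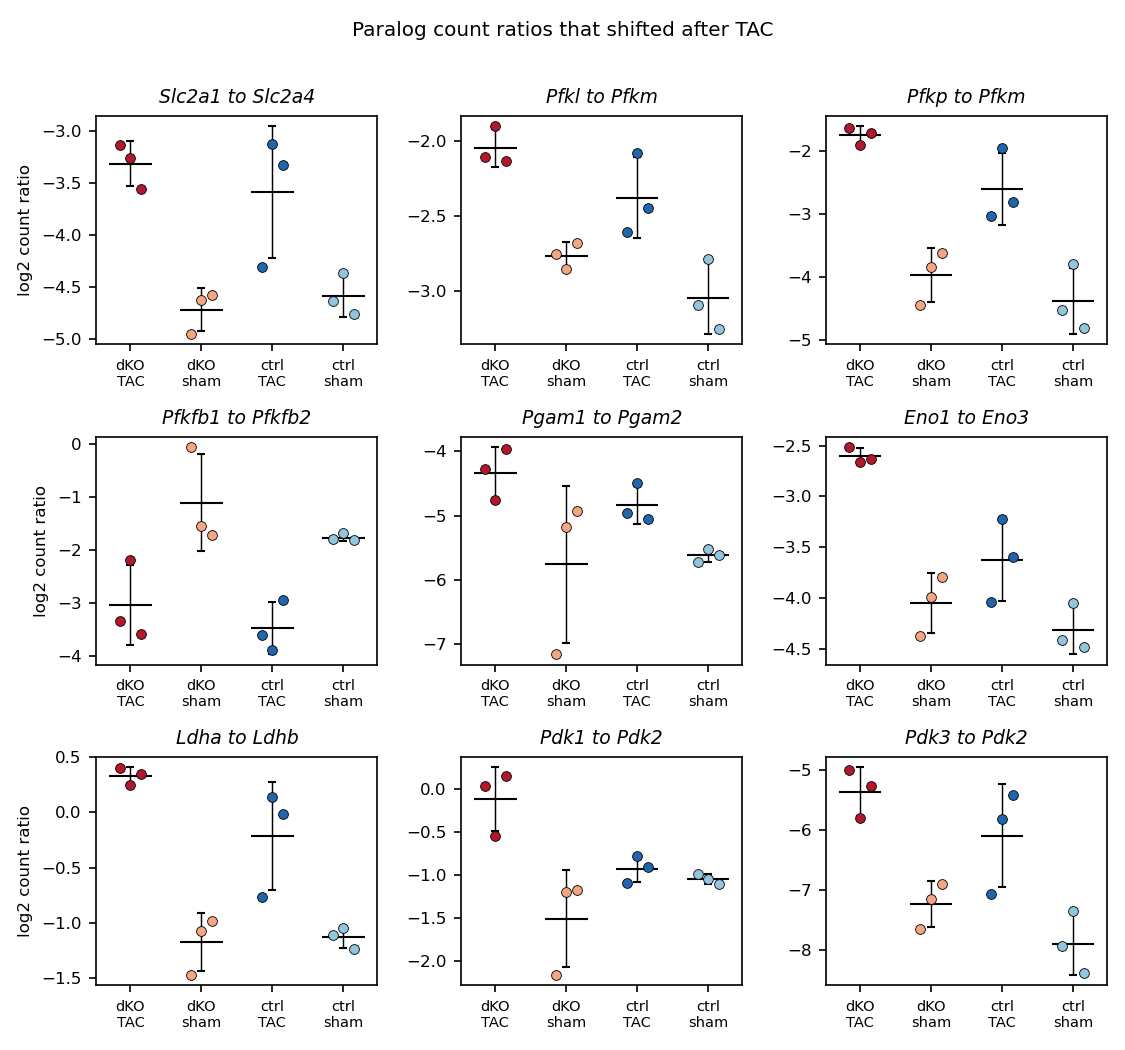
Log2 ratio of the counts of 2 genes of 1 family in each library, for the 9 ratios that shifted after TAC, with mean and SD (n = 3), in dKO TAC, dKO sham, control TAC and control sham. In 8 panels the TAC points lie apart from the sham points in both genotypes. In the Pdk1 to Pdk2 panel the control groups overlap.

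With all libraries the shifts of the 9 ratios were larger in dKO than in control, by amounts that differed between ratios, and the differences were not tested. This order rests in part on dKO sham replicate 1, which stood apart. There Pgam1 to Pgam2 was at -7.16, against -5.18 and -4.92 in dKO sham 2 and 3. Pfkfb1 to Pfkfb2 was at -0.0468, against -1.54 and -1.71, and Pdk3 to Pdk2 at -7.65, against -7.15 and -6.90. Without that library the dKO shift of these ratios would be smaller than in control. Pfkp to Pfkm moved by 2.22 in dKO and 1.77 in control on the log2 scale, and Pdk3 to Pdk2 by 1.88 and 1.81. Slc2a1 to Slc2a4 moved by 1.40 in dKO and 1.001 in control, Ldha to Ldhb by 1.503 and 0.92, and Pfkl to Pfkm by 0.72 and 0.67. Eno1 to Eno3 moved by 1.45 in dKO and 0.69 in control, and Pgam1 to Pgam2 by 1.42 and 0.78. Pfkfb1 to Pfkfb2 moved by -1.94 in dKO and -1.71 in control. Without the 2 libraries that stood apart, the shifts of these 8 in the mean of both genotypes kept their direction, at 1.13 for Slc2a1 to Slc2a4, 1.92 for Pfkp to Pfkm, 0.66 for Pfkl to Pfkm, -1.78 for Pfkfb1 to Pfkfb2, 0.86 for Pgam1 to Pgam2, 1.01 for Eno1 to Eno3, 1.16 for Ldha to Ldhb and 1.85 for Pdk3 to Pdk2. With those 2 libraries left out, none of the 30 tests passed (adjusted p = 0.0556 for each of these 8, exact permutation test). Each of these 8 was then at the smallest p possible for TAC with fewer libraries, 0.0167. The loss of the calls therefore cannot tell a smaller shift from fewer arrangements. Hk1 to Hk2 (0.53), Pygb to Pygm (0.42) and Pdk4 to Pdk2 (1.04) did not pass with all libraries (adjusted p = 0.075, 0.075 and 0.103, exact permutation tests). Pfkfb3 to Pfkfb2, Pfkfb4 to Pfkfb2 and Aldoc to Aldoa shifted by -0.04, 0.28 and 0.39, with adjusted p of 0.695 or more (exact permutation tests).

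As shares of a family per kb of transcript, lactate dehydrogenase and PFKFB changed in composition by more than 10 percentage points in the group means of both genotypes. Ldha made up 49.3%, 46.7% and 48.4% of the Ldha and Ldhb total in dKO TAC, against 21.1%, 25.98% and 27.3% in dKO sham. In control it made up 30.3%, 44.9% and 42.2% after TAC, against 25.5%, 26.3% and 23.9% after sham. All TAC libraries exceeded their sham libraries, and control TAC replicate 1 was nearest to sham. Pfkfb1 made up 15.9%, 25.7% and 15.2% of the 4 PFKFB genes in dKO TAC, against 63.8%, 39.2% and 36.2% in dKO sham, and 14.97%, 10.6% and 16.4% in control TAC, against 37.4%, 34.2% and 36.04% in control sham. Pfkp made up 16.0%, 13.3% and 15.2% of phosphofructokinase in dKO TAC, against 2.79%, 4.19% and 4.79% in dKO sham, and 6.99%, 13.1% and 8.00% in control TAC, against 2.68%, 4.32% and 2.25% in control sham. Pfkm stayed the main form, at 71.3% to 72.1% in dKO TAC and 73.4% to 82.6% in control TAC.

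Among transporters, enolases, mutases and kinases, Slc2a1, Eno1, Pgam1 and Pdk3 stayed the minor forms. Slc2a1 was 7.26 ± 0.99% of the 2 transporters in dKO TAC and 2.87 ± 0.38% in dKO sham, and 6.35 ± 2.30% in control TAC and 3.13 ± 0.43% in control sham (SD, n = 3 each). Eno1 was 11.3 ± 0.6% of the 2 enolases in dKO TAC and 4.51 ± 0.85% in dKO sham, and 6.03 ± 1.58% in control TAC and 3.76 ± 0.61% in control sham. Pgam1 was 2.35 ± 0.62% of the 2 mutases in dKO TAC and 1.05 ± 0.64% in dKO sham, and 1.65 ± 0.35% in control TAC and 0.956 ± 0.067% in control sham. Pdk3 was 1.15 ± 0.20% of the 4 kinases in dKO TAC and 0.470 ± 0.044% in dKO sham, and 0.863 ± 0.549% in control TAC and 0.250 ± 0.052% in control sham. Pdk2 was 44.3 ± 8.1% of the kinases in dKO TAC and 67.7 ± 13.1% in dKO sham, and 49.2 ± 10.2% in control TAC and 56.6 ± 8.6% in control sham. Hk1 averaged 56.4 ± 1.3% of the 2 hexokinases in dKO TAC and 46.6 ± 5.0% in dKO sham, and 53.4 ± 7.1% in control TAC and 45.0 ± 7.2% in control sham, so that it was the larger part in the TAC groups and the smaller in the sham groups, with a ratio to Hk2 that did not pass the test. Control TAC replicate 1 had the smallest Slc2a1 and Ldha shares of the TAC libraries (3.75% and 30.3%), and its summed fibroblast markers were at 1376 CPM against 3340 and 8156 CPM in the other control TAC libraries. The part of this difference in the shares was not tested.

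**Figure D4:**
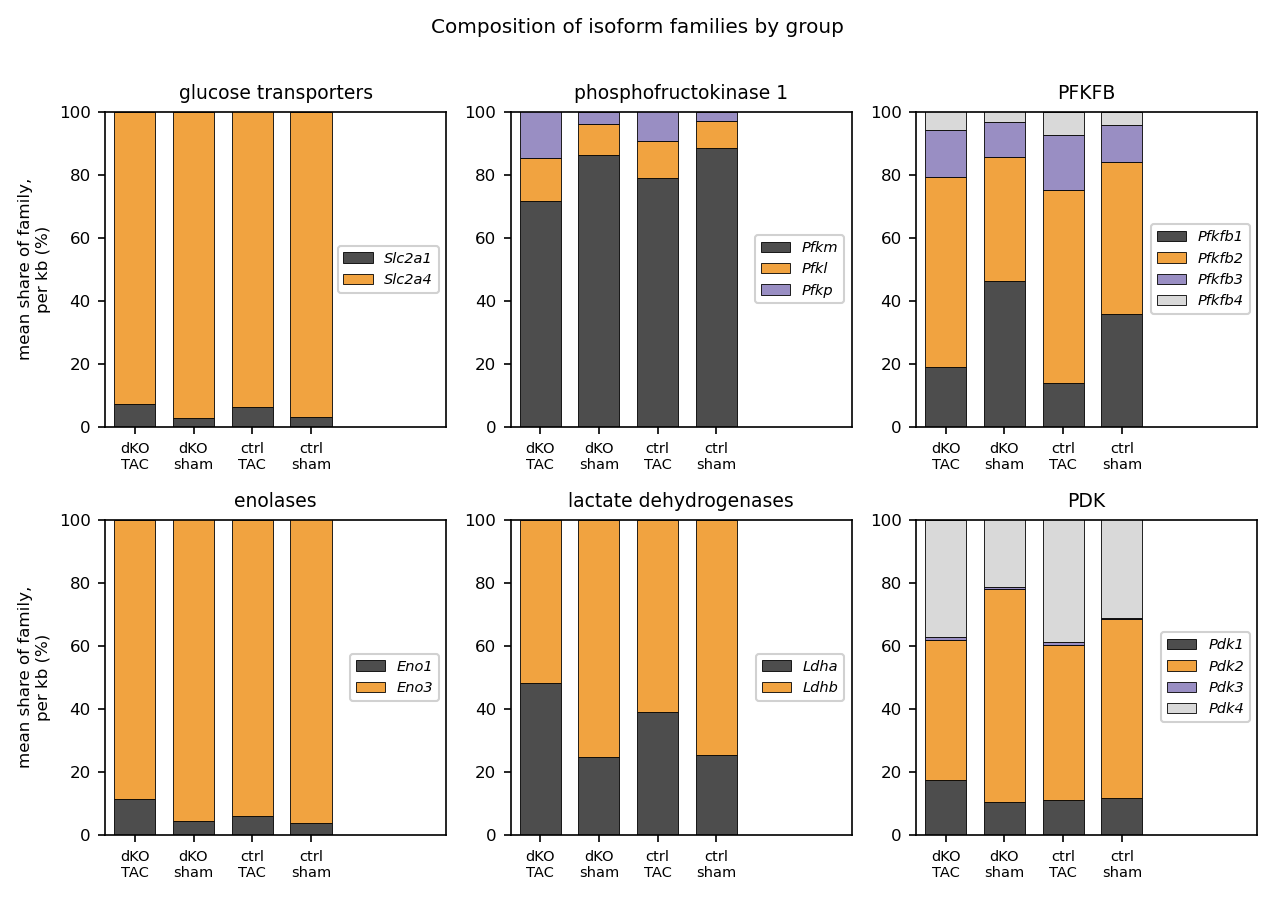
Mean share of each gene in its family, per kb of transcript and in percent (n = 3 libraries), for 6 families in dKO TAC, dKO sham, control TAC and control sham. Ldha takes 48.1% and 39.1% in the TAC groups against 24.8% and 25.2% in the sham groups of dKO and control, while Eno1 and Slc2a1 average at most 11.3% and 7.26% in any group.

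Loss of both MRTFs moved none of the members past the test. The comparison of dKO with control asks whether the pathway depends on these factors. After sham, 0 of 35 members were called (background 0.0680%, edgeR), with 7 at an unadjusted p under 0.05 and 0 in DESeq2 (62 of 14712 genes). After TAC, 0 were called (background 0.428%), with 4 at an unadjusted p under 0.05 and 1, Pgk1, in DESeq2 (320 of 14712 genes). No share of all genes was taken for the unadjusted p. Averaged over surgeries, 0 were called (background 0.585%), with 10 at an unadjusted p under 0.05 and 4 in DESeq2 (348 of 14712 genes). In that average the median change of the members was 0.13 and that of all tested genes -0.01 on the log2 scale, and 22 of 35 members had a positive change. The 5 largest positive changes were those of Pfkp (0.70 ± 0.17, adjusted p = 0.104), Eno1 (0.60 ± 0.16, adjusted p = 0.155), Ldha (0.57 ± 0.17, adjusted p = 0.204), Gapdh (0.56 ± 0.18, adjusted p = 0.245) and Pdk3 (0.53 ± 0.21, adjusted p = 0.332). Pgk1 changed by 0.44 ± 0.11 (adjusted p = 0.134). Pfkp was called in this average without control TAC replicate 2 (adjusted p = 0.0365).

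Several members were higher in every dKO library than in every control library of the same surgery without passing the test. Gapdh had 1420, 1668 and 1769 CPM in dKO TAC, against 1164, 1072 and 1205 CPM in control TAC, and 2235, 1211 and 1200 CPM in dKO sham, against 1043, 877 and 1086 CPM in control sham. Tpi1 had 642, 794 and 807 CPM in dKO TAC, against 630.4, 591 and 469.5 CPM in control TAC, and 1195, 634 and 613 CPM in dKO sham, against 596, 479.9 and 596 CPM in control sham. Pfkp, Tpi1, Gapdh, Pgk1, Eno1 and Ldha, 6 of 35 tested members, lay above control without overlap after both surgeries, as did 2.22% of all tested genes. No member lay below control without overlap after both surgeries (1.41% of all tested genes), while Eno3 and Pdk2 did so after TAC and Ugp2 after sham. The dKO sham library that stood apart was the highest of its group for Tpi1, Gapdh, Pgk1, Eno1 and Ldha. Without it 0 members were called in the average of both surgeries and 1, Pgk1, after TAC (adjusted p = 0.0396).

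Of the paralog ratios, Eno1 to Eno3 was called for dKO, at 0.64 in the mean of both surgeries (exact permutation p = 0.01, adjusted p = 0.0333). It was 1.02 after TAC, without overlap, and 0.27 after sham, with overlap. That call was lost without control sham 1 (adjusted p = 0.06), control sham 3 (0.0667), dKO sham 2 or dKO sham 3 (0.075 each), dKO TAC 1 (0.06), or both libraries that stood apart (0.06), by the exact permutation test. Pfkp to Pfkm and Pfkl to Pfkm shifted by 0.63 and 0.31 for dKO and did not pass (adjusted p = 0.075 each, exact permutation tests). Pgam1 to Pgam2, at 0.18 for dKO, was 0.53 and called without dKO sham 1 (adjusted p = 0.045, exact permutation test).

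In the test of the interaction, the TAC change in dKO minus that in control, 0 members and 0 of 14712 genes were called (background 0%, edgeR). In DESeq2 0 members and 8 of 14712 genes were called. At an unadjusted p under 0.05 in edgeR stood 3 members, with no share of all genes taken. The 3 were Phkg1 (-1.06 ± 0.41), Pdk1 (0.87 ± 0.31) and Gbe1 (0.79 ± 0.33), each with an adjusted p of 0.841. Pdk1 had 202, 159.5 and 254 CPM in dKO TAC, against 125, 176 and 166 CPM in dKO sham, and 174, 143 and 129 CPM in control TAC, against 228, 166 and 224 CPM in control sham. Pgam2 changed by -1.14 ± 0.41 in dKO and 0.08 ± 0.41 in control, and Eno3 by -1.22 ± 0.34 and -0.24 ± 0.34, with interactions of -1.22 ± 0.58 and -0.98 ± 0.48 that did not pass the test, and dKO sham replicate 1 held the highest level of both.

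Other genes around the pathway were read from a list of 78 by role, of which 75 were tested. After TAC 5 of them rose (background 9.53%) and 12 fell (background 7.08%) in the mean of both genotypes. In dKO 3 rose (background 4.20%) and 3 fell (background 3.19%), and in control 1 rose (background 1.90%) and 1 fell (background 0.347%). These counts move with single libraries: in the mean of both genotypes 17 were called with all libraries and 10 without control TAC 3, or 11 without control sham 1, control sham 3, control TAC 2 or dKO TAC 1. In dKO 6 were called with all libraries, 11 without control TAC 1 or dKO sham 1 and 3 without dKO TAC 1 or 3. In control 2 were called with all libraries, 10 without control TAC 1, 7 without dKO sham 1, 4 without control sham 2 and 0 without control sham 1, control sham 3 or control TAC 2. Stbd1, which tethers glycogen to membranes, rose in both genotypes, with 19.7, 16.5 and 22.2 CPM in dKO TAC, against 10.1, 8.99 and 7.53 CPM in dKO sham, and 14.7, 23.8 and 21.02 CPM in control TAC, against 8.64, 7.53 and 8.22 CPM in control sham. The groups were apart in both, with log2 changes of 1.13 ± 0.21 (adjusted p = 0.00953) and 1.29 ± 0.21 (adjusted p = 0.0146) in dKO and control. The control call of Stbd1 was lost without control sham 1 (adjusted p = 0.088), control sham 3 (0.102) or control TAC 2 (0.0655).

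In dKO, Fbp2, the muscle fructose bisphosphatase, had 5.62, 8.95 and 5.96 CPM after TAC, against 45.2, 24.4 and 22.3 CPM after sham (log2 change -2.16 ± 0.31, adjusted p = 0.00394). Pdp2, a phosphatase that reactivates pyruvate dehydrogenase, fell by 1.46 ± 0.34 in dKO on the log2 scale (adjusted p = 0.0247), a call lost without dKO sham 2 (0.0589), dKO TAC 1 (0.114), 2 (0.0539) or 3 (0.0829). Ppp1r3c, a glycogen-targeting phosphatase subunit, rose by 0.92 ± 0.21 in dKO (adjusted p = 0.0244), a call lost without dKO sham 2 (0.0601) or 3 (0.0503) or dKO TAC 1 (0.0922) or 3 (0.101). Control values of Fbp2, Pdp2 and Ppp1r3c are not given here. In the interaction 0 of the 75 tested genes of the list were called, so these changes are not shown to be particular to dKO. Hif1a encodes an oxygen-regulated factor whose binding sites can hold ACGTG, the only form of them searched for below. Hif1a had 200, 120 and 202 CPM in dKO TAC, against 28.6, 72.3 and 70.3 CPM in dKO sham (1.61 ± 0.31, adjusted p = 0.0122). In control it had 93.2, 113 and 103 CPM after TAC, against 71.2, 74.1 and 68.5 CPM after sham (0.53 ± 0.30, adjusted p = 0.422). The dKO call was lost without dKO TAC 1 (adjusted p = 0.0587) or 3 (0.0512), and the lowest value is that of the dKO sham library that stood apart. The lactate exporter Slc16a3 had 5.68, 8.14 and 6.53 CPM in dKO TAC, against 0.922, 1.33 and 1.51 CPM in dKO sham, and 2.10, 7.04 and 6.85 CPM in control TAC, against 0.731, 4.97 and 0.632 CPM in control sham. It rose in the mean of both genotypes (1.88 ± 0.48, adjusted p = 0.0214), a call lost without control TAC 2 (0.0568), control TAC 3 (0.0512) or both libraries that stood apart (0.0602). The monocarboxylate transporters Slc16a1 and Slc16a7 changed by -0.15 ± 0.15 (not called) and -0.86 ± 0.18 (adjusted p = 0.00832) in that mean. Slc16a7 was also lower in dKO averaged over surgeries, by -1.23 ± 0.18 (adjusted p = 0.00839), a call that held in all settings tried.

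Txnip, an arrestin that limits glucose uptake, fell in the mean of both genotypes (-0.52 ± 0.14, adjusted p = 0.0289), a call lost without control sham 1 (0.0534) or 3 (0.0818), control TAC 2 (0.0838) or 3 (0.0512), dKO sham 2 (0.0598), or dKO TAC 1 (0.0757) or 2 (0.06). Klf15, a regulator of Slc2a4 in muscle, fell by 1.12 ± 0.24 (adjusted p = 0.00892). Akt2, a kinase of the insulin path to GLUT4, fell by 0.54 ± 0.12 in that mean (adjusted p = 0.0118). Subunits of the mitochondrial pyruvate carrier were not called, with mean changes of -0.15 ± 0.15 for Mpc1 and -0.72 ± 0.25 for Mpc2 (adjusted p = 0.5 and 0.0659), nor was the pyruvate dehydrogenase gene Pdha1 (-0.26 ± 0.16).

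Promoter sequence is shown for 8 members: some pairs whose ratio shifted, other genes that rose, and Pfkp and Phkg1 as a rise and a fall called in both genotypes. Not shown are Pdk2, Pfkm and Pygm, which fell and hold ACGTG. Each window runs from 250 bases before to 50 bases after a RefSeq start (GRCm38.p6), read along the gene, and capitals mark ACGTG or its reverse complement, with the whole of CACGTG where it occurs, and the CArG box and the MEF2 site of muscle genes. Ldha (chr7:46845554-46845853, plus strand) holds ACGTG-type sequence at 3 places and a CArG box, and Ldhb (chr6:142507908-142508207, minus strand) has none.
Ldha: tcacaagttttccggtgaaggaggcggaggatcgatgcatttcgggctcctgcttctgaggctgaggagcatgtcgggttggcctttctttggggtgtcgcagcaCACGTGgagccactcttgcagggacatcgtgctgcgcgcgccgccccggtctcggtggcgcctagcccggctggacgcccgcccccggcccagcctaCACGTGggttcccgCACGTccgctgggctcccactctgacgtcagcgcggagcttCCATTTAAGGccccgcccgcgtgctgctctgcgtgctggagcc
Ldhb: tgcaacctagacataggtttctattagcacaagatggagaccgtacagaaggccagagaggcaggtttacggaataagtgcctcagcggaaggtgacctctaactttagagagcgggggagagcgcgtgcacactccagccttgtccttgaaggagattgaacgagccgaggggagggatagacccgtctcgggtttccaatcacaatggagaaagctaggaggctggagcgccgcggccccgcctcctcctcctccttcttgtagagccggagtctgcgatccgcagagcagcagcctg
Pgam1 (chr19:41911621-41911920, plus strand) holds ACGTG, and its muscle partner Pgam2 (chr11:5803747-5804046, minus strand) a MEF2 site.
Pgam1: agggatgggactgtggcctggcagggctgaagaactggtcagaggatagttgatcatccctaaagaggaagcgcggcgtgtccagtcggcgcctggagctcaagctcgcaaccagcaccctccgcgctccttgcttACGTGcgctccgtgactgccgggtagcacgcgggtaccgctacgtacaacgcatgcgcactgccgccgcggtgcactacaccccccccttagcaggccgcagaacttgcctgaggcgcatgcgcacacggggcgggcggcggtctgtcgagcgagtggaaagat
Pgam2: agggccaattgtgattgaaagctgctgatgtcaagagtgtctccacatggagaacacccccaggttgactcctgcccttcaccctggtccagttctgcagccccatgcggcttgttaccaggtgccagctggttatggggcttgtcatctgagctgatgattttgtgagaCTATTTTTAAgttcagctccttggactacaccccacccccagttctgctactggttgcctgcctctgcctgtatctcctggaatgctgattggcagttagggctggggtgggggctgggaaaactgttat
Pgk1 (chrX:106186850-106187149, plus strand) and Slc2a1 (chr4:119108495-119108794, plus strand) hold ACGTG as well.
Pgk1: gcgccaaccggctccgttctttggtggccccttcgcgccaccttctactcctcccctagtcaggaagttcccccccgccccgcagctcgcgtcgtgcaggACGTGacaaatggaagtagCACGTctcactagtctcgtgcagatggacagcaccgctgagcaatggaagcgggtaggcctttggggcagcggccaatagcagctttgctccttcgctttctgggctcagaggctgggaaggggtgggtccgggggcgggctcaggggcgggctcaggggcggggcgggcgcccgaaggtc
Slc2a1: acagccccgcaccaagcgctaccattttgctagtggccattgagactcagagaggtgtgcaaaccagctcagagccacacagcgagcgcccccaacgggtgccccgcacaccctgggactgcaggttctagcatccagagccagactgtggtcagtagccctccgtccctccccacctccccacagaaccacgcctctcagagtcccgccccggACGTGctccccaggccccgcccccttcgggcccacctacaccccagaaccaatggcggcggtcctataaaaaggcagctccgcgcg
Pfkp (chr13:6648722-6649021, minus strand) and Phkg1 (chr5:129879039-129879338, minus strand) hold no ACGTG, CArG box or MEF2 site.
Pfkp: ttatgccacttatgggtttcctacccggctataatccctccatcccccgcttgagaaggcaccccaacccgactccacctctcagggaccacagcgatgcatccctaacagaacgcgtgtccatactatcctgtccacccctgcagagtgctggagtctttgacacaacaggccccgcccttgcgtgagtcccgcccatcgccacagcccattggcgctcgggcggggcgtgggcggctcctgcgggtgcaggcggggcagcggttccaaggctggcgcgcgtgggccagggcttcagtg
Phkg1: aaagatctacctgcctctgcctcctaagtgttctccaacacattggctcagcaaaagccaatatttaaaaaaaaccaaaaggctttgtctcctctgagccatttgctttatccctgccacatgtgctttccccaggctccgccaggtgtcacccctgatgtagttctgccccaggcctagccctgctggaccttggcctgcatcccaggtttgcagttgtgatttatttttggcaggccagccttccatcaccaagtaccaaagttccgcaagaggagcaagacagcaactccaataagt

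Over all 35 members with a window, 22 of 55 windows (40.0%) held ACGTG on either strand, against 19.6% of 32851 windows of the same length for all genes in the RefSeq table. CACGTG, which contains ACGTG, was in 9.09% of the members' windows and 7.15% of all windows. The CArG box was in 1 window, that of Ldha, or 1.82%, against 1.63% of all windows, and the MEF2 site in 2, those of Pgam2 and Pfkfb1, or 3.64%, against 3.19%. GGGCGG, the core of the GC box, was in 50.9% of the members' windows and 35.7% of all windows, and TATAAA in 3.64% and 13.6%. By direction of the TAC call, ACGTG was in the windows of 4 of 5 genes that rose (Pdk3, Pgam1, Pgk1 and Slc2a1), of 3 of 6 that fell and have a window (Pdk2, Pfkm and Pygm), and of 10 of 23 that were not called. A match describes these letters and is no evidence of binding. Other forms of a factor's site were not searched, so a window without a match is not shown to lack a site.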

How the data were processed

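RNA of isolated cardiomyocytes was read in 12 libraries of 4 groups, as single ends of 100 nt from a stranded poly(A) kit and 200 ng of total RNA, per the labels' protocols. The authors deposited 1 table of raw counts per gene and library, 49568 rows, of which 21344 hold no count. The submitters' processing notes name Trimmomatic 0.36, STAR 2.5.2b, Subread 1.5.0p3 with featureCounts, and GRCm38.p5. Neither the gene models nor how strand and multiply aligned reads were handled is given in the sources used here, so genes with near-identical copies or overlapping exons are less certain. The members and lists were chosen with earlier results of these data known. Named were all 36 members, and of 78 other genes of the pathway, up to 8 with the smallest p among those called per comparison and 7 named whatever their values; 1 gene that the rule would name is not reported here.

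The counts were tested with edgeR 4.0.16 under R 4.3.3 (quasi-likelihood F test), after a filterByExpr filter on the groups and scaling by TMM, in 1 fit of all 12 libraries with 8 residual degrees of freedom. Benjamini-Hochberg adjustment ran over all 14712 genes tested, and a gene was called at an adjusted p under 0.05. CPM use the TMM-scaled library size. TPM and family shares divide counts by the length of the APPRIS principal transcript in GENCODE M21 (GRCm38). A CPM from a low count carries counting error on top of the spread between libraries, and 3 counts correspond to 0.0935 to 0.184 CPM. Paralog ratios, with 0.5 added to each count, were tested by exact stratified permutation. The fit was tested on simulated data without the trend with transcript length. Of genes changed 2-fold there, 26% to 37% were called in the comparisons of 2 groups and 7% in the interaction. In the averages over genotypes and over surgeries 73% and 67% were called. Of genes changed 4-fold, 62% were called in the interaction. Alternatives were RLE size factors, no filter, DESeq2 1.42.0, limma-voom (limma 3.58.1), only the groups compared, a replicate block, each library left out, both libraries that stood apart left out, and the trend with transcript length removed. For genes other than the members these alternatives were added after the data were seen. Copies were searched with blastn 2.17.0 at 95% identity over 100 nt or more.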

Additional observations from a re-analysis of the deposited data

How the results depend on the processing

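The number of members called after TAC in control (5) was 3 with limma-voom, 0 when only the groups compared were fitted, 3 with a replicate block and 0 to 5 with 1 library left out. After TAC in dKO (5) it was 12 with DESeq2, 12 with the length trend removed, 3 with only the groups compared and 3 to 9 with 1 library left out. In the mean of both genotypes (12) it was 7 to 15 with 1 library left out and 10 to 16 under the other settings. For dKO after TAC (0) it was 1 with DESeq2, 1 without both libraries that stood apart and 0 to 1 with 1 library left out, and for dKO averaged over surgeries (0) it was 4 with DESeq2, 1 with the length trend removed and 0 to 1 with 1 library left out. The counts for dKO after sham and for the interaction were 0 under every setting run. The 9 ratios that shifted after TAC were 0 with a replicate block and 0 without both libraries, where all 9 kept their direction and fewer arrangements leave a smallest p of 0.0312 and 0.0167. With the length trend removed 9 ratios were called after TAC, of which 8 were among those 9. The 1 ratio called for dKO was 3 with the length trend removed, 0 with a replicate block, 0 without both libraries and 0 to 3 with 1 library left out.

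Whether the replicate numbers pair the libraries was not settled: the correlation of same-numbered libraries' deviations ran from -0.66 to 0.51 over 12 pairs. Between TAC and sham it was 0.51, 0.42 and -0.20 for control replicates 1, 2 and 3, and -0.62, -0.66 and 0.21 for those of dKO. The dKO libraries that stood apart carry different numbers, which weighs on the dKO values. Comparisons averaged over genotypes or surgeries and the interaction have no fit on only the groups compared, since they use all 4. Over all genes, calls for TAC in control numbered 331 in the fit reported and 1005 with DESeq2, 936 without a filter, 175 with limma-voom, 542 with the length trend removed, 2 with only the groups compared and 2 to 1130 with 1 library left out. For TAC in dKO they numbered 1087 and 2376 with DESeq2, 647 with only the groups compared, 1840 with the length trend removed and 210 to 1389 with 1 library left out, and for TAC in the mean 2444 and 1322 to 3074. For dKO after TAC they numbered 63, and 320 with DESeq2, 508 without both libraries that stood apart and 8 to 252 with 1 library left out. For dKO averaged they numbered 86, and 348 with DESeq2, 198 without both libraries and 38 to 153 with 1 left out. Without a filter the counts for these 2 comparisons were 129 and 174, and with the length trend removed 132 and 149. For dKO after sham they numbered 10, and 62 with DESeq2, and for the interaction 0, and 8 with DESeq2. No called direction of a member, ratio or other named gene reversed under the settings run. With 3 libraries a group, a member that did not pass the test is not shown to be unchanged.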

Other observations

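For 4 glycolytic genes, chosen after their values were seen, counts on near-identical copies were concentrated in 1 library. Rows of the copies of Eno1 held 183 counts in control sham replicate 2 and at most 6 in any other library, those of Pkm 304 and at most 38, those of Ldhb 122 and at most 12, and those of Ldha 56 and at most 7. The genes themselves hold 31183 counts for Eno1 and 297693 for Pkm over the 12 libraries, so these rows are small beside them. Copies of Gapdh held 1189 counts in the same library and at most 978 in another, those of Gpi1 72 and at most 37, and those of Pgk1 5 and at most 12.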
